A study of Mus musculus with 10 samples.

Results

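Polar-like trophoblast cells within blastoids were taken as the 121 wells of 1 single-cell library in which transcripts of Eomes and Sox2 together outnumbered those of Flt1. They were drawn from 257 kept wells of the blastoid library, out of 1192 kept wells in the 4 single-cell libraries of the series. A well was kept when it held at least 2000 unique molecular identifiers (UMIs, which count captured transcripts) outside mitochondrial genes. Wells with 2 or more summed UMIs of Tdgf1, Tdh, Dppa5a, Fgf4 and Gdf3, genes of pluripotent cells, were set aside. The same rule chose 240 polar-like wells among 299 kept wells of cultured cells, the comparison library. Wells in which Flt1 outnumbered Eomes and Sox2 are called mural-like, a name that states this rule alone. They numbered 81 in the blastoid library and 34 in the cultured library. Eomes, Sox2, Flt1 and the pluripotency genes chose the wells, so the wells were selected on their levels, which are given as a description and support nothing further.

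All samples were mouse trophoblast stem cells (TSCs) on a C57BL/6J background, measured by CEL-Seq2, which reads the ends of transcripts. The blastoid library held cells of line pTS1, a polar-type TSC line (pTSC), sorted after they had been taken out of harvested blastoids. The cultured library held pTSCs labelled only as newly derived and grown in LT21 medium. Both carried a randomly integrated GFP cassette, each group was 1 plate of 384 wells, and the labels do not say whether the cultured cells were line pTS1. Line, plate, medium and time in blastoids therefore cannot be told apart in any difference between these libraries. The 2 other single-cell libraries were F4 TSCs after withdrawal of growth factors and undifferentiated F4 TSCs, both with the GFP cassette. The 6 bulk libraries came from TSCs with eGFP knocked in at the CDX2 coding sequence, 3 sorted as CDX2-high and 3 as CDX2-low.

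Trophectoderm is the outer epithelium of the blastocyst. Its polar part covers the inner cell mass, receives FGF4 and Nodal from it and keeps dividing, while the mural part lines the cavity, leaves the stem state and forms giant cells. Eomes and Sox2 encode transcription factors of the trophoblast stem state, and Flt1 encodes a receptor for vascular endothelial growth factor. Blastoids are blastocyst-like structures that stem cells form in culture.

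Polar-like wells from blastoids held 1144288 UMIs outside mitochondrial genes (lowest well 2019, median 8579, highest 33847), against 1972826 in cultured polar-like wells (median 6907.5). Mitochondrial genes took 19.9% of all UMIs in polar-like blastoid wells and 15.3% in polar-like cultured wells, and 19.2% in mural-like blastoid wells. The part of this difference in the results below was not tested. The 384 well barcodes are the same on both plates because they mark positions, and 76 positions held a polar-like well in both libraries. With 1 library per group there is no test of any single-cell difference. Levels are summed UMIs per 1000000 UMIs outside mitochondrial genes (CPM), ratios carry exact 95% intervals that cover counting error only, and a gene is called higher or lower when the ratio reached 2-fold, which is a rule of size. Genes needed 30 UMIs over the groups compared.

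Polar-like wells made up 50.4% of 240 trophoblast wells from blastoids (exact binomial 95% interval 43.9 to 56.9) and 80.5% of 298 cultured ones (75.6 to 84.9). The rule reads raw counts, so the share moves with depth. With every well thinned to 2000 UMIs the shares were 41.5% in the blastoid library and 66.9% in the cultured library. They were 27.5% in differentiated F4 TSCs and 72.0% in undifferentiated F4 TSCs, each thinned likewise.

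Among the members, 92 wells held UMIs of both Eomes and Sox2, 21 held Eomes alone and 8 held Sox2 alone, and 57 also held at least 1 Flt1 UMI. Eomes stood at 564 CPM in polar-like blastoid wells, 666 CPM in polar-like cultured wells and 43.4 CPM in mural-like blastoid wells. For Sox2 the levels were 528, 676 and 15.3 CPM in the same order, and for Flt1 104, 277 and 1680 CPM. The pluripotency genes of the rule summed to 1 UMI in 6 members and to 0 in the other 115. Sox2 is also a gene of pluripotent cells, and the 17 wells set aside had 1431 CPM of it. Those 17 wells held 12 UMIs of the trophectoderm keratin Krt18 among 99207 UMIs in all, while the 121 members held 2724 among 1144288. Pou5f1 and Nanog, genes of the epiblast, had 0 UMIs in the members. However, Pou5f1 reached only 6 UMIs in the 17 wells, so both genes were poorly counted here. They belong to a list of 12 pluripotency genes beside the rule, which summed to 443 CPM in the members. It summed to 453 CPM in cultured polar-like wells and 304 CPM in mural-like blastoid wells. Of 5 measured members, 1 was 2-fold higher than in cultured polar-like wells and 0 lower, beside 6.87% of all genes higher. Over mural-like blastoid wells 1 of 5 was higher and 0 lower, beside 6.59% of all genes higher.

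Sorl1, Lin28a and Gnao1 were the genes given to mark these cells beside Eomes and Sox2, chosen with results of these data known. Sorl1, a sorting receptor, spanned 0 to 1753 CPM with a median of 434 over polar-like blastoid wells, 0 to 1090 with a median of 51.2 over mural-like blastoid wells, and 0 to 884 with a median of 44.6 over polar-like cultured wells. Its summed level was 536 CPM in polar-like blastoid wells, 5.67-fold (4.45 to 7.32) above mural-like blastoid wells and 4.30-fold (3.70 to 5.0) above polar-like cultured wells. Single wells overlap between all these groups, but the median of polar-like blastoid wells stands apart from the other medians. Lin28a, an RNA-binding protein of stem and progenitor cells, had 604 CPM in polar-like blastoid wells, 198 in mural-like blastoid wells and 200 in polar-like cultured wells. Its median well had 595 CPM among the members and 111 CPM among cultured polar-like wells. Gnao1, a G protein subunit, was sparse, with a median of 0 in every group and 83.9 CPM in polar-like blastoid wells, 17.9 in mural-like blastoid wells and 46.6 in polar-like cultured wells. All 3 genes were thus higher in polar-like than in mural-like blastoid wells. Sorl1 and Lin28a, but not Gnao1 (1.80-fold, 1.34 to 2.42), were also past 2-fold over cultured polar-like wells.

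**Figure D1:**
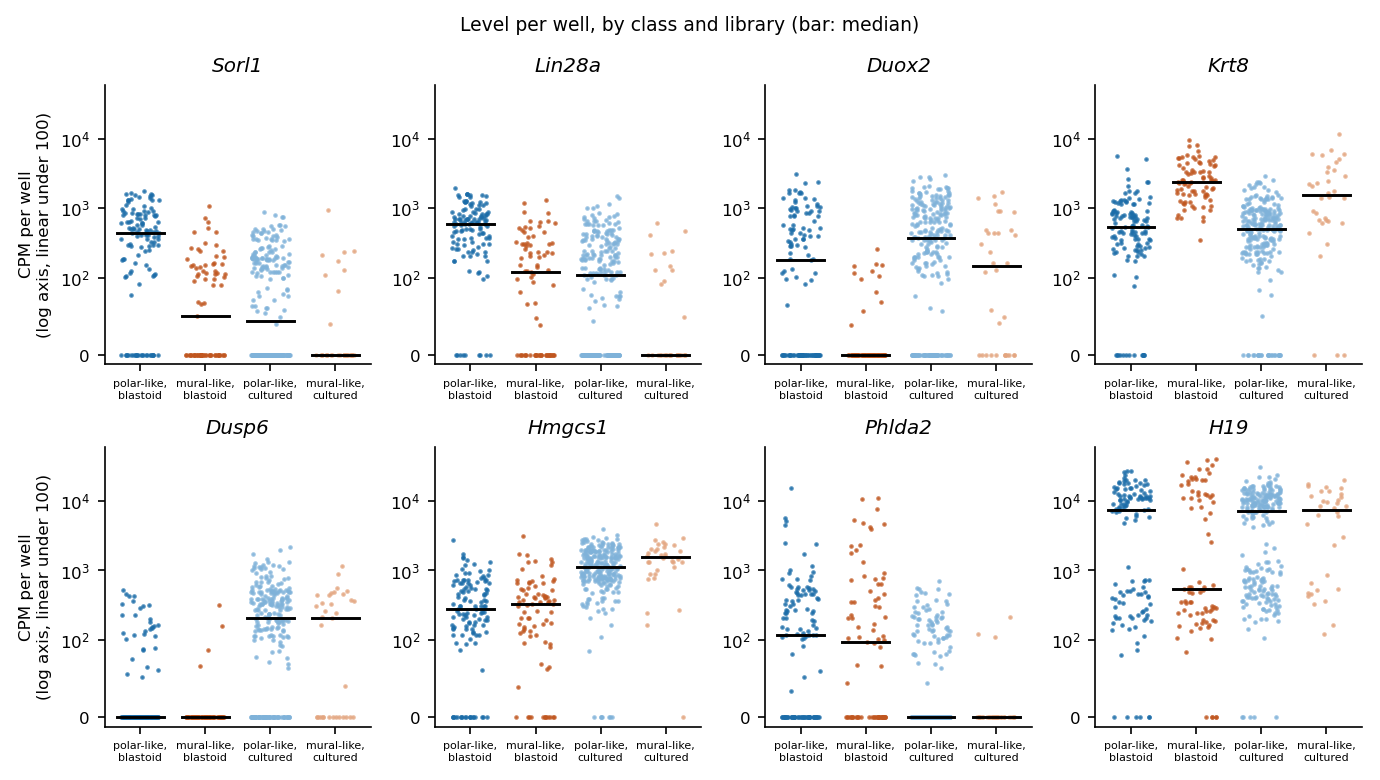
CPM of 8 genes in each well, on an axis that is linear under 100 CPM and logarithmic above, for polar-like and mural-like wells of the blastoid library and polar-like and mural-like wells of the cultured library (121, 81, 240 and 34 wells), with a bar at the median. Sorl1 and Lin28a stand highest in polar-like blastoid wells, Dusp6 and Hmgcs1 are low in both blastoid classes, and H19 falls into a high and a low range of wells.

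The margin by which a well met the rule went with the level of genes that the rule did not read. In the blastoid library, 16 members had a margin of 1 UMI, 11 a margin of 2, 48 a margin of 3 to 9 and 46 a margin of at least 10. The polar trophectoderm list (14 genes, without Eomes and Sox2) summed to 5112, 8623, 10976 and 15162 CPM in these 4 groups from the smallest margin to the largest. The mural list without Flt1 summed to 7243, 5074, 3117 and 2326 CPM, and the keratins Krt8 and Krt18 to 7119, 5464, 2890 and 2143 CPM, in that order. Just outside the rule, 38 wells with equal counts had 4933 CPM of the polar list and 6126 CPM of the mural list, so the 16 wells just inside it differed little from them. In the cultured library the polar list summed to 22690 CPM at a margin of 1 and 19426 CPM at a margin of 10 or more, and the mural list to 2268 and 1983 CPM. Mural-like wells held 2914 CPM of the polar list and 8418 CPM of the mural list in the blastoid library. In the cultured library they held 14809 and 4725 CPM. The cultured mural-like wells thus had a higher sum of the polar list than all members together, at 12210 CPM, and were unlike mural-like blastoid wells. Abundant genes such as Gsto1 weigh most in this sum, and not every list member followed it. Duox2 was higher in all members together than in cultured mural-like wells. Median depth was 5860 UMIs at a margin of 1 and 10970 at 10 or more in the blastoid library, and its part in the gradient was not tested. By gene, the 92 wells with both factors had 13676 CPM of the polar list and 2618 CPM of the mural list. The 21 wells with Eomes alone had 5953 and 6627 CPM, closer to the wells just outside the rule. Some single members held more of the mural list than of the polar list. Among them was the deepest member, with 33847 UMIs, 1064 CPM of the polar list and 10459 CPM of the mural list. Deeper wells weigh more in the sums.

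**Figure D2:**
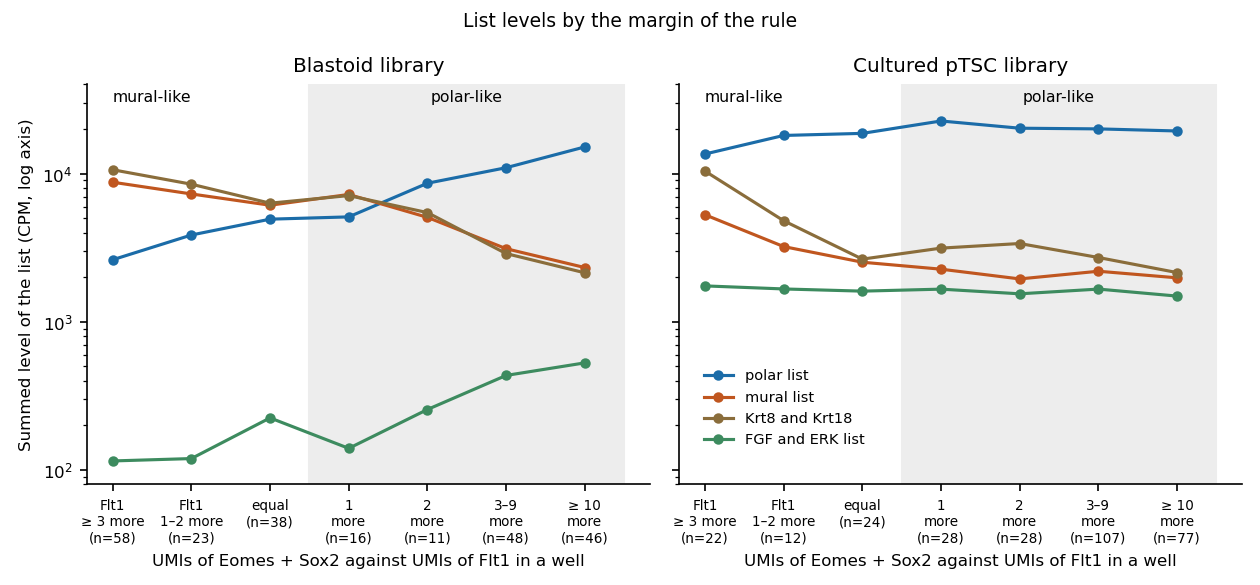
Summed CPM (log axis) of the polar list, the mural list, Krt8 with Krt18 and the FGF and ERK list, by the difference in a well between UMIs of Eomes with Sox2 and UMIs of Flt1, with polar-like wells shaded and the number of wells under each point. In the blastoid library the polar list climbs to 15162 CPM and the keratins drop to 2143 CPM across the polar-like range, while in the cultured library the lists change little across it.

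Polar-like cells from blastoids were set against polar-like cultured cells to see how cells of 1 class differ between these libraries. FGF and ERK targets and cholesterol synthesis genes were lower in polar-like blastoid wells, and 3 genes of the ectoplacental cone list were higher. Of 6989 genes measured, 480 were at least 2-fold higher in polar-like blastoid wells (6.87%) and 472 at least 2-fold lower (6.75%), and the median log2 ratio of all genes was 0.05.

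In the FGF and ERK list, 0 of 9 measured members were 2-fold higher and 7 were 2-fold lower, with a median log2 ratio of −2.32. FGF signals through ERK, which switches on its own feedback inhibitors. Dusp6, a phosphatase that removes the activating phosphate from ERK, ranged from 0 to 531 CPM with a median of 0 in polar-like blastoid wells, and from 0 to 2212 CPM with a median of 211 in polar-like cultured wells. Its summed level was 48.9 CPM in polar-like blastoid wells against 316 CPM in cultured ones, a ratio of 0.155 (0.116 to 0.204). Most members had no Dusp6 UMI, and the highest member lay well under the highest cultured well. Spry4, a feedback inhibitor of receptor tyrosine kinase signalling, had 21.8 CPM in polar-like blastoid wells and 189 CPM in cultured ones (ratio 0.116, 0.074 to 0.174). Phlda1 had 69.9 and 411 CPM in the same order, the AP-1 factor Fosl1 21.0 and 107 CPM, Ier3 33.2 and 163 CPM, the phosphatase Dusp4 10.5 and 52.2 CPM, and the cyclin Ccnd1 18.4 and 51.7 CPM. The 2 members short of 2-fold were the inhibitors Spry2, with 95.3 CPM in polar-like blastoid wells and 138 CPM in cultured ones, and Spred1, with 114 and 137 CPM. Measured members of the list of FGF and other receptors did not go with them. Of 5, 1 was 2-fold higher, 0 were lower and the median log2 ratio was 0.16. Fgfr4, an FGF receptor outside that list, was lower, with 89.1 CPM in polar-like blastoid wells and 271 CPM in cultured ones. In mural-like blastoid wells over mural-like cultured wells, 6 of 6 measured FGF and ERK members were 2-fold lower, beside 6.92% of 4642 genes, with a median log2 ratio of −4.02. The polar-like blastoid wells, with a summed 435 CPM of this list, thus lay above mural-like blastoid wells, with 116 CPM. Polar-like cultured wells had 1574 CPM and mural-like cultured wells 1727 CPM, so in culture the summed level was not higher in the polar-like class.

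In the cholesterol synthesis list, 11 of 12 measured members were 2-fold lower in polar-like blastoid wells and 0 were higher, with a median log2 ratio of −1.57. Cells switch these genes on together through the transcription factor SREBP2 when sterols are scarce. Hmgcs1, which makes the precursor HMG-CoA, ranged from 0 to 2707 CPM with a median of 276 in polar-like blastoid wells and from 0 to 3949 CPM with a median of 1115 in cultured polar-like wells. Summed, it had 429 CPM in polar-like blastoid wells and 1253 CPM in cultured ones, a ratio of 0.342 (0.310 to 0.377). The median member lay under the lower quartile of the cultured wells, 748 CPM, although the ranges overlapped. Cyp51, a sterol demethylase, had 249 CPM in polar-like blastoid wells against 913 CPM in cultured ones, and Fdft1, which makes squalene, 39.3 against 190 CPM. Insig1, which holds SREBP in the endoplasmic reticulum and is itself a target, had 163 CPM in polar-like blastoid wells against 549 CPM in cultured ones. Fdps alone stayed short of 2-fold, on 14 and 30 UMIs. The difference did not follow the class of the well: Hmgcs1 stood at 408 CPM in mural-like blastoid wells and 1693 CPM in mural-like cultured wells, and 10 of 10 measured list members were 2-fold lower in that comparison, with a median log2 ratio of −1.96. Between polar-like and mural-like blastoid wells, 0 of 10 measured were past 2-fold either way and the median log2 ratio was 0.10.

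Hmgcs1 is shown by the 250 bases before its annotated start, since it gave many UMIs in both libraries and its window holds a match to a sterol regulatory element, the site that SREBP factors bind. The sequence is from RefSeq on GRCm38.p6, plus strand, chr13:119690101-119690350, with the match in capitals.
Hmgcs1: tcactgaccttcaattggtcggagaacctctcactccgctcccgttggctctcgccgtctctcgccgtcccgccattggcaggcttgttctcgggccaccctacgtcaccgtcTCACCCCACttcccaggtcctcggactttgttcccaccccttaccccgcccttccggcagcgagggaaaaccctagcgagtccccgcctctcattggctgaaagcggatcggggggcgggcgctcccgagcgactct
The motif searched was TCACNCCAC, on both strands, with no other motif searched. The match, TCACCCCAC, spans bases 114 to 122 of the 250. Windows of 300 bases, which add 50 bases after each start, were searched in 32851 annotated promoters, and 408 of them (1.24%) held the motif. Of the 15 genes in the cholesterol list 9 had a promoter in the table, and 1 of these 9 held it. A match describes these letters and is no evidence of binding.

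Lists of trophoblast outside the polar class did not all go the same way between the members and cultured polar-like wells. In the ectoplacental cone and spongiotrophoblast list, cells of the early placenta, 3 of 4 measured members were 2-fold higher and 0 lower, with a median log2 ratio of 1.69. The summed level of this list was 2139 CPM in polar-like blastoid wells and 796 CPM in cultured ones, while the median well had 917 and 707 CPM in that order and the highest 20977 and 4527 CPM. The sums therefore lay further apart than the median wells. The difference was also present in mural-like wells, blastoid over cultured, where 4 of 4 were 2-fold higher (median log2 ratio 2.03), beside 11.7% of all genes. Within the blastoid library the list was lower in polar-like than in mural-like wells, at 2139 against 5987 CPM. There 3 of 4 were 2-fold lower and 0 higher (median log2 ratio −1.73), beside 5.47% of all genes lower. The protein kinase Nrk had 144 CPM in polar-like blastoid wells and 32.4 CPM in cultured ones, a ratio of 4.44 (3.31 to 6.03), and the homeobox gene Rhox6 had 887 and 379 CPM. Phlda2, an imprinted gene that restrains placental growth, had 626 CPM in polar-like blastoid wells and 61.3 CPM in cultured ones, a ratio of 10.2 (8.4 to 12.5). A few wells carried much of this sum: the 5 highest of the 121 wells held 464 of its 716 UMIs. Without them, and with all cultured polar-like wells kept, the ratio was 3.83. Leaving wells out of the members alone lowers a ratio by itself. In the mural list, 3 of 7 measured members were 2-fold higher and 0 lower (median log2 ratio 0.88), among them Ndrg1, a gene induced by hypoxia and differentiation, at 436 CPM in polar-like blastoid wells and 72.5 CPM in cultured ones. The iodide transporter Slc5a5 had 35.8 and 13.7 CPM in the same order. Of the giant cell list only Bhlhe40 was measured, and it was 2-fold lower in the members (log2 ratio −1.86). In the labyrinth list 1 of 2 measured genes was 2-fold higher and 0 lower, with a median of 1.72. This median was negative without the 5% deepest wells and with a margin of at least 3 UMIs, where 1 gene was measured. It was also negative against all cultured trophoblast wells, where 3 genes were measured. The mural median was 0.34 when members and cultured wells needed a margin of at least 3 UMIs, which leaves out the wells nearest the rule's limit.

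Of 12 measured genes of the polar list, 0 were 2-fold higher than in culture, 3 were 2-fold lower and the median log2 ratio was −0.52. The N-acetylaspartate synthase Nat8l had 336 CPM in polar-like blastoid wells and 1063 CPM in cultured ones, Gsto1, a glutathione transferase, 5132 and 10513 CPM, and the oxidase maturation factor Duoxa2 14.9 and 70.5 CPM. Duox2 itself, Ddah1, Ppp2r2c and Cpne3 lay within 1.2-fold of the cultured level, and Cited1, a transcriptional coactivator, had 141 CPM in polar-like blastoid wells and 90.7 CPM in cultured ones (ratio 1.55, 1.25 to 1.93). Nat8l had a median of 0 CPM over the member wells and 806 CPM over the cultured polar-like wells. Without its 5 highest member wells, which held 171 of 385 UMIs, its level in the members was 203 CPM. Of 9 measured trophoblast stem genes, 0 were 2-fold higher and 1 was lower: Sox3, which had 39.3 CPM in polar-like blastoid wells and 283 CPM in cultured ones (ratio 0.139, 0.100 to 0.188). The 5 highest member wells held 36 of its 45 UMIs. Without them, and with all cultured polar-like wells kept, the ratio was 0.0297. Cdx2 had 46.3 CPM in polar-like blastoid wells and 58.3 CPM in cultured ones, Elf5 24.5 and 19.8 CPM, and Gata3 375 and 419 CPM. Division genes were similar, with 0 of 9 S phase genes past 2-fold, and of 13 G2 and M phase genes 1 was higher (Mki67, 615 CPM in polar-like blastoid wells and 273 in cultured ones) and 0 lower.

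The other lists were compared in the same way, polar-like blastoid over cultured wells. In the Hippo and YAP list 2 of 4 were 2-fold lower and 0 higher, with the YAP target Cyr61 at 88.3 CPM in polar-like blastoid wells and 540 CPM in cultured ones. In the Nodal, TGF-beta and BMP list 4 of 9 were lower and 1 higher: Nodal had 7 UMIs in the members and 39 in cultured wells, its inhibitor Lefty2 5 and 44 UMIs, and the inhibitory Smad6 115 and 305 CPM, while Bmp7 had 28.0 and 3.04 CPM. Immediate early and heat shock genes, which respond to handling of cells, were lower for 4 of 9 and higher for 0, with Fos at 47.2 CPM in polar-like blastoid wells and 215 CPM in cultured ones. In the glycolysis and hypoxia list 2 of 11 were higher and 0 lower, namely Ndrg1 and the mitophagy receptor Bnip3, at 239 CPM in polar-like blastoid wells and 110 CPM in cultured ones. Among 15 junction and keratin genes 1 was lower, the desmosomal Perp, with 736 CPM in polar-like blastoid wells and 1490 CPM in cultured ones. No p53 (7 measured), interferon (3) or primitive endoderm (4) member was past 2-fold. The fibroblast marker Thy1 had 5 UMIs in the members and 69 in the cultured polar-like wells.

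Genes were also ranked by ratio, provided that 25% of the wells in the higher group held a UMI of the gene. The 12 with the largest ratio included genes of several functions. Cnih2, which escorts glutamate receptors, had 55.9 CPM in polar-like blastoid wells and 4.56 CPM in cultured ones, a ratio of 12.3 (6.07 to 28.0). The kinase Prkch had 38.5 and 3.55 CPM in the same order, the tight junction protein Tjp3 69.0 and 8.62 CPM, and Cpt1a, which brings fatty acids into mitochondria for oxidation, 58.6 and 8.11 CPM. Phlda2 and Ndrg1 were also among the 12, followed by Gpnmb, Mapt, Fbxl22, Plcg2, the clock repressor Nr1d2 and Epn3, at ratios of 4.96 to 5.83. The 5 highest member wells held 90 of 151 Plcg2 UMIs and 62 of 95 Epn3 UMIs, so these sums rested on few wells. Without those wells, and with all cultured wells kept, Plcg2 stood at 2.16-fold and Epn3 at 1.84-fold. Cnih2 stood at 9.28-fold and Tjp3 at 6.53-fold when treated likewise. The 12 with the smallest ratio were led by the myelin and lymphocyte protein Mal, with 5 UMIs in the members and 141 in cultured wells, and the matrix protein fibronectin (Fn1), with 7 and 174 UMIs. Next were Coro2b, the forkhead factor Foxq1 (28.8 CPM in polar-like blastoid wells and 308 CPM in cultured ones), Lpar6, Spry4, the homeobox gene Hoxc9, Slc45a1, Sox3, Nefl, the tubulin Tuba1a (155 and 1014 CPM) and Dusp6. Tuba1a had a median of 94.5 CPM over the member wells and 836 CPM over the cultured ones. These differences were not particular to the polar-like class. All ranked genes measured in mural-like blastoid over mural-like cultured wells went the same way there, for instance Ndrg1 (log2 ratio 2.77) and Tuba1a (−1.58). Only Epn3, at 0.81, was short of 2-fold in that comparison. Fbxl22, Nr1d2, Coro2b, Lpar6 and Slc45a1 were not measured in it.

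**Figure D3:**
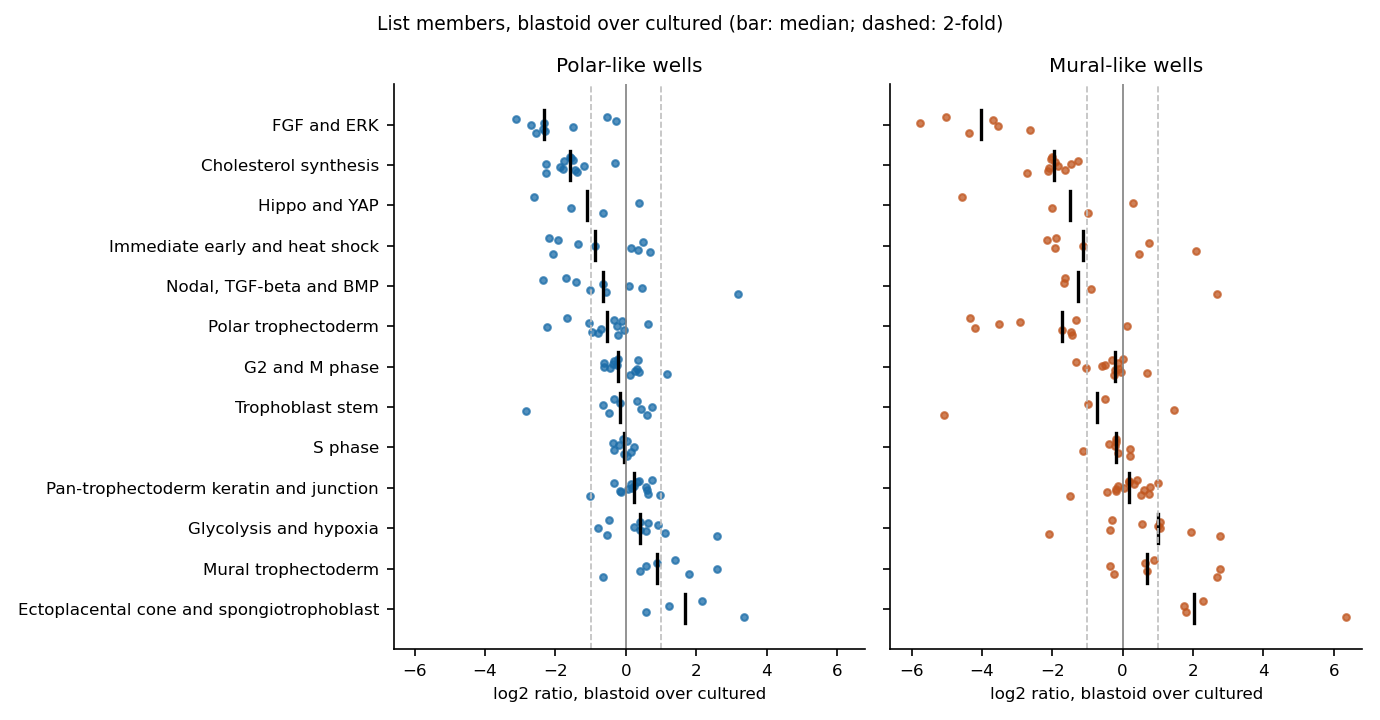
Log2 ratio of each measured member of 13 gene lists, blastoid over cultured, for polar-like wells on the left and mural-like wells on the right, with a bar at each list's median and dashed lines at 2-fold. FGF and ERK genes (median −2.32 for polar-like and −4.02 for mural-like wells) and cholesterol synthesis genes (−1.57 and −1.96) lie to the left in both classes, and ectoplacental cone genes (1.69 and 2.03) to the right.

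Within the blastoid library, polar-like wells were set against mural-like wells. The division was made with 3 of the genes, so every ratio describes what went with the rule and none is a test. Of 5921 genes, 390 were at least 2-fold higher in polar-like wells (6.59%) and 324 at least 2-fold lower (5.47%). Among the 10 largest ratios were transcription factors and signalling genes. Zic5 had 175 UMIs in polar-like wells and 3 in mural-like wells, a ratio of 39.9 with a counting interval of 13.4 to 196. Bmp4, a ligand that the extraembryonic ectoderm sends to the epiblast after implantation, had 57 UMIs and 1 UMI in the same order (a ratio of 39, 6.73 to 1568), and Spry2 had 109 and 2 UMIs (37.3, 10.1 to 312). The hydrogen peroxide producing oxidase Duox2 had 476 CPM in polar-like wells and 15.3 CPM in mural-like wells, and ranged from 0 to 3064 CPM over the polar-like wells and from 0 to 259 CPM over mural-like wells. Sox21, Inpp1, Nat8l, the FGF receptor Fgfr4, Tmem114 and Ube2l6 completed the 10, at ratios of 16.7 to 32.3. In the polar list 10 of 11 measured members were 2-fold higher and 0 lower (median log2 ratio 2.76), and in the FGF and ERK list 5 of 6 were higher and 0 lower (2.36). Sox3 had 45 UMIs in the members and 0 in mural-like wells, at least 10.3-fold higher against a floor of 3 UMIs over the group. Without the 5 wells that held 36 of these UMIs, its level in the members was 8.42 CPM, against a floor of 3.83 CPM in mural-like wells. All 13 G2 and M phase genes and all 9 S phase genes had ratios above 1, of which 4 and 0 were past 2-fold.

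Some keratins and giant cell genes were among those lower in polar-like than in mural-like blastoid wells. In the keratin and junction list 5 of 15 measured members were 2-fold lower and 0 higher (median log2 ratio −0.24), and in the giant cell list 2 of 3 measured were lower and 0 higher. Ptgs2, which makes prostaglandins, had 4 UMIs in polar-like wells and 222 in mural-like wells, a ratio of 0.0123 (0.00333 to 0.0320). Abca1, which exports cholesterol, had 24.5 CPM in polar-like wells and 157 CPM in mural-like wells. Mbnl3, Il13ra1, Serpinb9b, Nbl1, the hormone gene Sct, Tceanc and Efnb1 were also among the 10 smallest ratios. The 2 giant cell genes past 2-fold, Serpinb9e (9 UMIs in polar-like wells and 153 in mural-like wells) and Serpinb9g (6 and 81 UMIs), belong to a family whose close copies can share reads, and the third measured, Bhlhe40, had a log2 ratio of −0.24. Krt8 had 801 CPM in polar-like wells and 3165 CPM in mural-like wells, and Krt18 2381 and 6967 CPM. The basement membrane collagens Col4a1 and Col4a2 had 611 and 634 CPM in polar-like wells, against 1852 and 1649 CPM in mural-like wells. Both are on the primitive endoderm list, and were its only 2 members past 2-fold of 3 measured.

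The same division was made in the cultured library, whose wells are not part of the blastoid one. Of 6170 genes, 481 were 2-fold higher in cultured polar-like wells (7.8%) and 223 were 2-fold lower (3.61%), with 34 mural-like wells behind the second level. Of the 390 genes higher in polar-like blastoid wells, 364 were measured in the cultured division and 79 of them were higher there (21.7% of those measured and 16.4% of the cultured list), 1 was lower, and their median log2 ratio was 0.49. Of the 324 lower genes, 240 were measured and 75 were lower in the cultured division (31.2% of those measured and 33.6% of the cultured list), 9 were higher, and the median was −0.63. For instance, Duox2 had 567 CPM in polar-like and 281 CPM in mural-like cultured wells, and Zic5 201 and 68.5 CPM. The polar list had 4 of 12 measured members 2-fold higher and 0 lower in cultured polar-like wells (median log2 ratio 0.72), and the FGF and ERK list 1 of 9 higher and 0 lower (0.19). The keratin Krt8 had 621 CPM in polar-like and 2775 CPM in mural-like cultured wells. Whether the ratios differ between libraries was not tested.

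The only replicated measurement of the series, sorted bulk TSCs, did not enter the rule. Bulk totals ran from 157588 to 272030 counts in the CDX2-high libraries and from 116659 to 138966 in the CDX2-low libraries, so every CDX2-high library was deeper, and the part of depth in the calls was not tested. The labels do not say whether the 3 libraries of a group came from separate cultures, so p-values measure the spread between these libraries, which may be technical. In bulk, fewer cells of a type and less RNA per cell cannot be told apart. Over 3006 genes tested with edgeR (quasi-likelihood, Benjamini-Hochberg adjusted), 93 rose in CDX2-high libraries (3.09%) and 84 fell (2.79%). Of the 390 genes higher in polar-like than mural-like blastoid wells, 100 could be tested in bulk: 24 rose, 3 fell, and the median log2 fold change was 0.53. Of the 324 lower genes, 67 were tested: 1 rose, 19 fell, and the median was −0.57, while that of all genes tested was −0.01. The 24 genes are 25.8% of all that rose and the 19 are 22.6% of all that fell. DESeq2 called 23 of these 47 genes, and 2 others had no adjusted p there. Over all genes, 54 rose and 41 fell without CDX2-high library 37, 60 and 42 without library 38, and 50 and 31 without library 39. Among the genes taken from the blastoid wells, the counts were 13 and 11 without library 37 in place of 24 and 19, without library 38 they were 15 and 12, and 10 fell without library 39.

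Several of these genes separated the libraries. The inositol phosphatase Inpp1 had 258, 247 and 337 CPM in the CDX2-high libraries and 41.03, 34.7 and 36.5 CPM in the CDX2-low libraries, a rise of 2.90 ± 0.36 (SE) on the log2 scale (edgeR adjusted p = 9.28e-06). Every CDX2-high library lay far above every CDX2-low one. Zic2, a transcription factor and polar list member, had 251, 200.3 and 323 CPM in CDX2-high and 30.8, 26.0 and 18.3 CPM in CDX2-low libraries, and rose by 3.34 ± 0.41 (SE; edgeR adjusted p = 9.28e-06). Nat8l had 327, 275 and 230.4 CPM in CDX2-high and 123, 86.7 and 45.6 CPM in CDX2-low libraries and rose by 1.69 ± 0.33 (SE; edgeR adjusted p = 0.00176). Dusp6 rose by 1.95 (edgeR adjusted p = 0.000435) and Sox3 by 2.20 (edgeR adjusted p = 0.000204), and DESeq2 did not call Sox3. Krt8 had 228, 238 and 297 CPM in CDX2-high libraries against 1026, 789 and 940.1 CPM in CDX2-low libraries, and fell by 1.83 (SE 0.22; edgeR adjusted p = 7.05e-06). Jun, Rhox6, Rhox9, Rhox13 and Krt18 also fell. Among the markers given for these cells, Sorl1 had 106, 97.8 and 120 CPM in CDX2-high and 51.3, 69.3 and 54.8 CPM in CDX2-low libraries without passing (0.87 ± 0.39 on the log2 scale, edgeR adjusted p = 0.216). Lin28a, Gnao1 and Flt1 were too low to be tested. The 4 genes that went the other way were Id2, Gldc and Cyr61, higher in polar-like wells and lower in CDX2-high bulk, and the fatty acid transporter Slc27a4, with the opposite pattern.

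**Figure D4:**
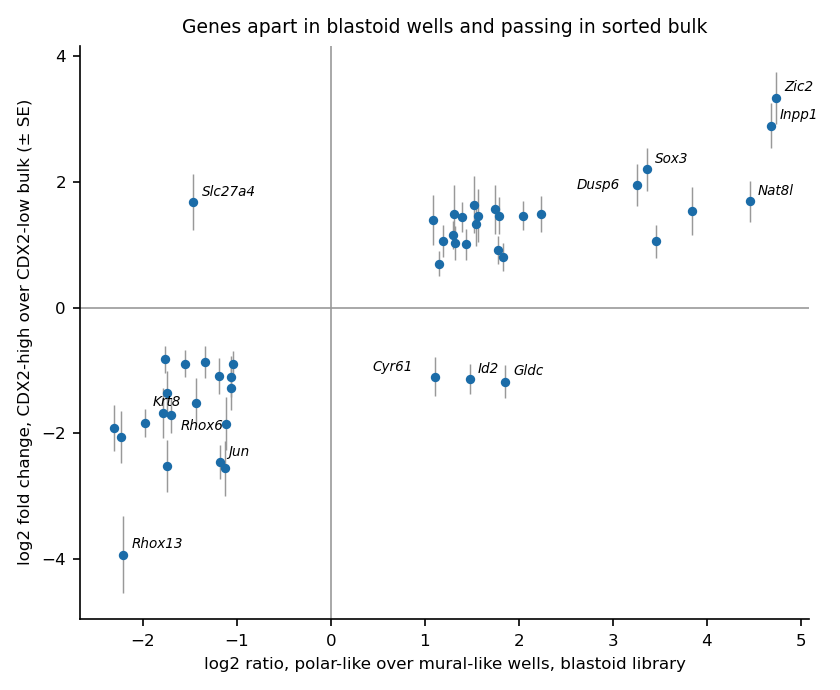
Each point is 1 of the 47 genes that were at least 2-fold apart between polar-like and mural-like blastoid wells (log2 ratio, x axis) and passed in bulk (log2 fold change of CDX2-high over CDX2-low with its SE, y axis). In the upper right are 24 genes with Inpp1 and Zic2 at the end, in the lower left 19 with Rhox13 lowest, and 4 lie in the other quadrants.

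To see which genes varied most among the members, wells were thinned to 2000 UMIs and ranked by the Fano factor, the variance over the mean, which is near 1 for counting noise and had a median of 1.15 over 845 genes. The largest were Rn18s-rs5 (28.1), H19 (15.6), Lars2 (13.95), Phlda2 (12.7), Gsto1 (8.85), the metallothionein Mt2 (6.38), Rhox6 (5.99) and Malat1 (5.99). Rn18s-rs5 is a ribosomal RNA entry, and Lars2 shares sequence with mitochondrial ribosomal RNA, so these counts may hold reads of other RNAs. Gsto1 is a member of the polar list. In cultured polar-like wells the factor was 11.5 for H19, 9.27 for Gsto1, 3.96 for Mt2 and 10.7 for Malat1. It was 0.91 for Phlda2 and 1.26 for Rhox6 there. The mean of Phlda2 was 1.04 UMIs in the thinned members and 0.0917 in the thinned cultured wells. In the thinned members Phlda2 was at 0 in 80 wells and reached 35 UMIs in the highest. Thinning adds wells at 0: before it, 60.3% of the members and 28.75% of cultured polar-like wells held a Phlda2 UMI. Phlda2 was thus present in many members and very high in a few.

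H19, an imprinted long noncoding RNA expressed from the maternal allele in the placenta, divided the members into 2 ranges. It stood under 2000 CPM in 51 of 121 wells and at 4000 CPM or more in 70, and 0 wells lay between. These bounds were set after the values were seen, so the empty range is a description and sets no limit on intermediate cells. The low and high wells had median depths of 8705 and 8316 UMIs and 11438 and 12790 CPM of the polar list, so they were alike in both. Among cultured polar-like wells 98 of 240 were in the low range, 2 between and 140 in the high range. Mural-like blastoid wells held 47 of 81 in the low range and 32 in the high one. Undifferentiated F4 polar-like wells held 95 of 273 in the low range and 159 in the high one, whereas all 114 polar-like wells of differentiated F4 TSCs lay under 2000 CPM.

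Across the 121 members, lists moved together in the directions of the division by class. The summed level per well of the polar list had a Spearman correlation of −0.52 and a Pearson correlation of −0.54 with the mural list, and of 0.45 and 0.38 with the FGF and ERK list. The mural list had 0.53 and 0.64 with Krt8 and Krt18, and 0.41 and 0.64 with the glycolysis and hypoxia list, with which it shares Ndrg1 and Slc2a3. With the depth of the well the polar list had 0.17 and 0.10. Cholesterol synthesis genes had 0.17 and 0.09 with the polar list and −0.11 and −0.14 with the mural list. These wells share 1 library and the total that scales them, and the values describe the wells only.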

How the data were processed

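Single cells were sorted into 384-well plates and measured by CEL-Seq2, 1 plate per group, and 6 bulk libraries were made likewise, per the labels' protocols. Reads were aligned with STAR 2.5.3a, per the submitters' processing notes, while for the counting program, annotation and genome build nothing is given in the sources used here. The single-cell files were deposited as estimated counts of transcripts per gene and well, all whole numbers, and the bulk file was deposited as whole-number counts per gene, both unscaled. Whether the counting used strand is not given, so overlapping genes and near-identical copies are uncertain.

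The members, gene lists and markers were chosen with earlier results of these data known. Wells needed 2000 UMIs outside mitochondrial genes. Doublets were not called, so a well that received 2 cells would be kept. Counts were summed over the wells of a class and scaled to CPM without mitochondrial genes. Ratios carry exact conditional binomial 95% intervals, which cover counting error only, as do all intervals given. Genes needed 30 UMIs over both groups, and a group at 0 was set to 3 UMIs. The 26 lists are described by counts past 2-fold and medians over measured members, leaving out the 8 genes of the rule. Named are the 12 genes with the largest ratio each way for blastoid over cultured wells, the 10 for polar-like over mural-like wells, and the 8 with the largest Fano factor at a mean of 0.5 UMIs or more after thinning. Some genes that these rules name are not reported here. Other genes in the text are list members or are used to check the wells. For Fano factors and thinned shares, wells were thinned to 2000 UMIs without replacement. Bulk counts were fitted with edgeR 4.0.16 (TMM, filterByExpr, quasi-likelihood, adjusted p under 0.05), with DESeq2 1.42.0 as the alternative. Replicate numbers do not pair the bulk groups, so no block was fitted. Python 3.11.15 with numpy 2.4.6, pandas 2.3.3 and scipy 1.17.1, and R 4.3.3 with limma 3.58.1 were used. The sums, intervals and bulk fit were tested on simulated data with known answers.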

Additional observations from a re-analysis of the deposited data

Results flagged for a closer look

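Abca1, a cholesterol exporter, had opposite signs in the 2 divisions. Its log2 ratio of polar-like over mural-like wells was −2.68 in the blastoid library (28 UMIs in polar-like and 123 in mural-like wells) and 1.05 in the cultured library (28 UMIs in polar-like and 2 in mural-like wells). The difference was not tested, and the cultured ratio rests on 2 UMIs.

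Wells with 2 or more UMIs of the pluripotency genes lie outside the comparisons. They numbered 17 of 257 kept wells in the blastoid library (6.61%, exact binomial 95% interval 3.9 to 10.4), 8 of 318 in differentiated F4 TSCs (2.52%), 7 of 318 in undifferentiated F4 TSCs (2.20%) and 1 of 299 in cultured pTSCs (0.334%).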

How the results depend on the processing

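No paired analysis was possible because the replicate numbers of the 2 bulk groups are not shared and each single-cell group is 1 library. For polar-like blastoid over polar-like cultured wells, the counts of higher and lower genes were 1051 and 988 with a minimum of 10 UMIs, 173 and 187 with 100, and 201 and 245 with wells thinned before the rule, an alternative chosen after seeing the data. The polar list median was −0.70 at 10 UMIs. The mural list median was 0.57 at 10 UMIs, 0.51 without the 5% deepest wells, 0.34 with a margin of 3 or more and 0.56 against all cultured trophoblast wells. The labyrinth list had 2 measured genes and a median of 1.72. It gave −0.69 without the 5% deepest wells and −0.45 with a margin of 3 or more, each on 1 measured gene. Against all cultured trophoblast wells it gave −0.63 on 3 measured genes. For polar-like over mural-like blastoid wells the counts were 913 and 734 at 10 UMIs and 160 and 139 at 100. The polar list median there was 2.01 at 100 UMIs and 3.25 at a margin of 3, the mural list median −1.67 at a margin of 3 and −1.18 by Eomes alone, and the primitive endoderm median 0.51 at 10 UMIs, against −1.38. In the cultured division the counts were 788 and 687 at 10 UMIs, 100 and 54 at 100, and 110 and 103 by Eomes alone. The share of polar-like wells in the blastoid library was 41.5% thinned, 39.2% with a margin of 3 and 42.5% by Eomes alone, and in the cultured library 66.9%, 61.7% and 61.4%. In bulk, DESeq2 called 48 genes that rose and 27 that fell, and 13 and 9 among the genes taken from the blastoid wells. With each bulk library left out in turn, 50 to 98 genes rose and 31 to 91 fell, and 13 to 23 and 10 to 19 among those genes. The cause was not tested in any of these cases, beyond the number of genes or libraries that a setting leaves.

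The comparison of mural-like wells between libraries was also added after seeing the data. Results were checked once per alternative setting, against their interval or, for counts, against a set factor. Values for named genes, with the gene counts of that comparison, moved 26 times and stayed 483 times. The main counts, shares and list medians moved 46 times and stayed 148 times. Other list medians moved 34 times, reversed 4 times and stayed 721 times. Bulk calls of single genes were the same 87 times, lost 19 times and gained 2 times. Depth limits what can be said of genes under 30 UMIs, and 1 library a group leaves the spread between plates unknown.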
